A study of Mus musculus with 20 samples.

Results

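Lungs of Arg2 knockout mice were compared with lungs of wild type mice after both had lived at 10% oxygen for 28 days. The comparison takes 8 of the 16 samples of the series, namely the 4 samples labelled knockout and hypoxia and the 4 labelled wild type and hypoxia. The mice were adults of 8 to 10 weeks on a mixed C57/129 background, Arg2-/- in one group and Arg2+/+ in the other. The other 8 samples, 4 of each genotype, came from mice kept in room air with 21% oxygen and served to estimate the spread and to ask whether the genotype effect differed with oxygen. Whole lung RNA was depleted of ribosomal RNA and sequenced, so each value is an average over all cells of the lung. The labels do not say which part of Arg2 was deleted or whether the mice were littermates. They number the samples without stating that each number is an animal, so a p-value here reflects the spread among these samples and nothing more.

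Arg2 is the arginase of mitochondria and turns arginine into urea and ornithine. Arginine is also the substrate of the nitric oxide synthases, which relax lung vessels, and ornithine feeds the synthesis of polyamines and proline. Chronic hypoxia raises pulmonary artery pressure and thickens vessel walls in mice. Several of the genes that differed belong to the protein folding systems of the cell. Unfolded proteins in the endoplasmic reticulum (ER) activate the transcription factors XBP1, ATF6 and ATF4, which raise ER chaperones, and unfolded proteins in the cytosol activate HSF1, which raises heat shock proteins.

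Reads counted in genes numbered 18010924, 32826561, 23880067 and 42865169 in wild type samples 1 to 4 and 30877496, 23824117, 17740561 and 43700225 in knockout samples 1 to 4. Wild type sample 4 stood apart, with 27.9% of its reads in the 10 most abundant genes, against 8.81% to 10.4% in the other 7 samples. Its ribosomal RNA gene Rn45s was at 249615 CPM, against 5827 to 7456 CPM in the other hypoxia samples. CPM are counts per 1000000 reads in genes, scaled by TMM, a method of edgeR that equalises libraries on their common genes. Knockout samples 1 and 2 stood apart by genes of the exocrine pancreas, described with the other organs. Wild type sample 1 and knockout sample 3 had the lowest shares of reads in genes, 35.5% and 37.7%, against 47.4% to 64.2% in the others, and are called the low-share pair. Among the room air samples, which enter the same fit, wild type sample 3 had 9531270 reads in genes, 25.4% of its reads in genes and 12.4 multiple alignments per read in genes, against 2.34 to 7.13 in all other samples. Without it 4336 genes were called in hypoxia in place of 3632, with 3629 of these among them. The defining markers of lung cells were present in all 8 samples. Sftpc of alveolar type II cells was between 8229 and 12649 CPM in the 8 samples, Ager of type I cells between 1851 and 2299 CPM, and Scgb1a1 of club cells between 12452 and 18080 CPM. Foxj1 of ciliated cells, Cdh5 of endothelium and Acta2 of smooth muscle were also present, at 53.4 CPM or more in every sample. The genotypes overlapped for all 6 of these markers, and only Cdh5 had an edgeR adjusted p under 0.05 (log2 fold change -0.25, SE 0.09, adjusted p = 0.0438).

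Arg2, on chromosome 12 at 79130777 to 79156301 of GRCm38, had 6.33, 11.7, 10.0 and 9.13 CPM in wild type samples 1 to 4 and 4.57, 3.22, 5.37 and 3.97 CPM in knockout samples 1 to 4. All knockout samples lay below all wild type samples, but reads remained. The knockout mean of 4.28 ± 0.912 CPM (SD, n = 4) was 46.0% of the wild type mean of 9.30 ± 2.25 CPM, with a log2 fold change of -1.13 (SE 0.22, edgeR adjusted p = 0.00191). Values with ± are means with the SD over 4 samples throughout. The counts cover the whole gene, so they do not show whether the reads that remained came from outside the deleted part. Vti1b, on the opposite strand at a distance of 0 bases, had 74.7 ± 7.79 CPM in wild type and 90.4 ± 9.79 CPM in knockout samples. Whether its reads enter the Arg2 counts was not tested.

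Among 19 measured genes of arginine and polyamine metabolism, 2 rose, Oat and Azin1, and 1 fell, Arg2 itself. A call here means an adjusted p under 0.05 from edgeR's quasi-likelihood test with Benjamini-Hochberg adjustment over all genes, and of the whole set of genes 11.0% passed with a higher and 12.1% with a lower level in the knockout. With 3 calls the list's share was below the 23.0% called over all genes. Oat, ornithine aminotransferase, went from 252 ± 25.9 to 334 ± 24.6 CPM (log2 fold change 0.41, SE 0.09, adjusted p = 0.00349). Azin1, which restrains the breakdown of ornithine decarboxylase, was at 225 ± 41.3 against 326 ± 21.5 CPM (adjusted p = 0.0287). Its adjusted p was 0.0848 without wild type sample 2, 0.0897 without wild type sample 4, 0.0517, 0.0622 and 0.0820 without knockout samples 2, 3 and 4, and 0.0688 and 0.0626 without the low-share pair and without knockout samples 1 and 2. With the trend with GC content removed its log2 fold change went from 0.54 to 0.27 (adjusted p = 0.0554). Arg1, the cytosolic arginase, was at 2.07 ± 1.05 and 1.45 ± 0.218 CPM (adjusted p = 0.267), and Odc1, ornithine decarboxylase, at 23.0 ± 5.79 and 22.1 ± 1.22 CPM (adjusted p = 0.804). For neither gene could a difference be told from the spread between samples.

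The nitric oxide synthases moved in opposite directions. Nos3, the endothelial synthase, had 51.8, 55.9, 47.1 and 42.2 CPM in wild type and 69.2, 75.5, 71.1 and 65.3 CPM in knockout samples. Every knockout sample was above every wild type sample, with a log2 fold change of 0.51 (SE 0.11, adjusted p = 0.00459). Gch1, which makes the cofactor that all nitric oxide synthases need, rose by the same log2 fold change of 0.51 (SE 0.11, adjusted p = 0.00345), from 22.4 ± 1.27 to 32.0 ± 2.12 CPM. Nos2, the inducible synthase, had 16.2, 10.6, 10.5 and 8.02 CPM in wild type and 5.46, 5.93, 4.41 and 5.01 CPM in knockout samples. These ranges did not overlap either, and Nos2 was lower with a log2 fold change of -1.11 (SE 0.31, adjusted p = 0.0184). That call was lost without wild type sample 1 (adjusted p = 0.0652), without knockout sample 3 (0.0542), and without knockout sample 4 (0.0546). Without both knockout samples with pancreatic RNA the log2 fold change was -1.25 (adjusted p = 0.0560), and without the low-share pair -0.83 (adjusted p = 0.141). In the list of 16 measured genes of nitric oxide and cyclic GMP these were the 3 calls, 2 higher and 1 lower. That share of 18.75% was below the 23.0% called over all genes.

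Across the lung transcriptome, 3632 of 15761 genes (23.0%) were called, of which 1732 rose and 1900 fell in the knockout. The changes were mostly small. The median size of a called log2 fold change was 0.49, and 455 genes (2.89%) were called with at least a 2-fold change, 149 higher and 306 lower. For 4009 genes (25.4%) the 4 knockout samples did not overlap the 4 wild type samples, and 2959 of them were called. In a principal component analysis of 4996 genes the first component held 59.1% of the variance and placed the wild type samples between -16.2 and -5.8 and the knockout samples between 7.4 and 16.7. The number of calls depended on single samples, falling to 2364 without knockout sample 3 and to 2092 without knockout sample 4. It was 1517 without both samples with the lowest share of reads in genes. Under upper quartile scaling the calls split into 1402 higher and 2228 lower, so that 38.6% were higher in place of 47.7%, while the median over all genes moved from -0.01 to -0.05 on the log2 scale.

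**Figure D1:**
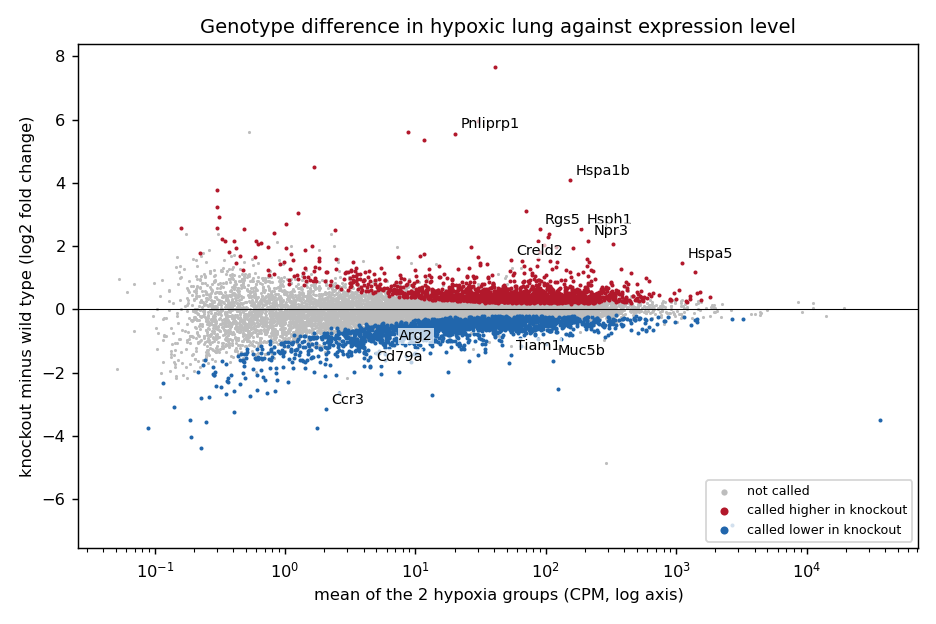
Each point is 1 of 15761 genes, placed by the mean of both hypoxia groups in CPM on a log axis and by its log2 fold change of knockout against wild type. Genes called higher are red (1732), genes called lower are blue (1900) and others are grey, and the labelled chaperone genes Hspa5, Creld2, Hsph1 and Hspa1b lie above 0 while the leukocyte genes Cd79a and Ccr3 lie below it.

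The difference between genotypes also moved with base composition. In the fifth of genes with the lowest GC content (29.6% to 45.2%) the median log2 fold change was 0.19, with 21.9% called higher and 4.39% lower. In the fifth with the highest GC content (56.1% to 78.6%) it was -0.13, with 5.03% called higher and 17.1% lower. After the trend with GC was removed from each sample, 3400 genes were called, 2750 of them among the 3632 above.

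Genes of the ER folding machinery were higher in the knockout, and 3 of their promoters are shown because they hold an element known to act in this group. The ER stress element is bound by ATF6 and XBP1 together with the factor NF-Y. The sequences run from 250 bases before to 50 bases after the start site, in the RefSeq annotation of GRCm38.p6, 5′ to 3′ on the strand of the gene. Capitals mark a match to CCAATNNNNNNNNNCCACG on either strand. The Hspa5 promoter is chr2:34771840-34772139 on the plus strand, the Creld2 promoter chr15:88819396-88819695 on the plus strand and the Hsp90b1 promoter chr10:86705395-86705694 on the minus strand.
Hspa5: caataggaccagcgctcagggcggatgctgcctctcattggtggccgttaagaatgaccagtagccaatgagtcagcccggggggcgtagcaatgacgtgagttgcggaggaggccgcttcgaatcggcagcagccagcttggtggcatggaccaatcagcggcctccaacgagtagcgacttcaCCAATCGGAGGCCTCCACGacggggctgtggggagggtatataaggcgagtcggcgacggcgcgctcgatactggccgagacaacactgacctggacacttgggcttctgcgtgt
Creld2: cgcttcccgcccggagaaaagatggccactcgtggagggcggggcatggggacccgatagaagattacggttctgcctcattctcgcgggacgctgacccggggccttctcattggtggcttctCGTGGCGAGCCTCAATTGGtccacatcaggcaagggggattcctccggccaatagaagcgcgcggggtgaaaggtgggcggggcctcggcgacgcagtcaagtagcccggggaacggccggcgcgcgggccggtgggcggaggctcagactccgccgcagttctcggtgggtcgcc
Hsp90b1: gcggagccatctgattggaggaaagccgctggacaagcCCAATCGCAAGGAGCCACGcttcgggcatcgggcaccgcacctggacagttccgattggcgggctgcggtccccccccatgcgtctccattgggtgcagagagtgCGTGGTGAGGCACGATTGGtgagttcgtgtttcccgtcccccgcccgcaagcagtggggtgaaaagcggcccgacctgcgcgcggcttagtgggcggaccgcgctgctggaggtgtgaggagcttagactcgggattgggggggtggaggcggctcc

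The match in Hspa5 begins 65 bases before the start site, and that in Creld2 126 bases before it and in reverse orientation. Those in Hsp90b1 begin 212 and 107 bases before the start site, the latter in reverse orientation. Of 32851 promoters of this length in the annotation, 39 (0.119%) held the element. Among 15 ER folding genes with a promoter in that table, 7 (46.7%) held it, namely Hspa5, Creld2, Hsp90b1, Calr, Canx, Dnajc3 and Pdia6. It was found in 9 of 1291 genes called higher (0.697%), in 1 of 1378 called lower (0.0726%) and in 10 of 8906 tested and not called (0.112%). The 9 genes called higher include the 7 just named and Derl3 of ER-associated degradation, so this share is not separate from the list count. No promoter of 17 cytosolic heat shock genes held it. A match describes these letters in this window and says nothing about binding.

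Of 20 ER folding chaperones and disulfide enzymes, all measured, 16 rose in the knockout and 0 fell. Their median log2 fold change was 0.62, against -0.01 over all genes tested, and their summed level was 4704 to 5160 CPM in the wild type samples and 7274 to 8799 CPM in the knockout samples. Creld2, a secretory pathway protein induced by ER stress, had 25.9, 28.9, 27.6 and 27.5 CPM in wild type and 82.0, 72.8, 81.1 and 85.5 CPM in knockout samples. Both groups were tight and far apart, with a log2 fold change of 1.55 (SE 0.10, edgeR adjusted p = 3.2e-08). Manf, a secreted ER protein that binds the central chaperone BiP, had 47.1, 59.1, 61.4 and 51.9 CPM in wild type and 160, 138, 150 and 188 CPM in knockout samples (log2 fold change 1.54, SE 0.14, adjusted p = 5.79e-06). Hspa5, which encodes BiP itself, had 575, 603, 646 and 545 CPM in wild type and 1602, 1374, 1643 and 1894 CPM in knockout samples, so the lowest knockout sample was above the highest wild type sample. Its log2 fold change was 1.46 (SE 0.13, adjusted p = 2.57e-06).

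The partners of BiP rose with it. The cofactor Sdf2l1 went from 17.2 ± 1.69 to 45.1 ± 5.81 CPM (log2 fold change 1.40, SE 0.16, adjusted p = 4.68e-05). The J-domain proteins Dnajb9 and Dnajc3, which hand substrates to BiP, had log2 fold changes of 1.15 (SE 0.24, adjusted p = 0.00464) and 0.73 (SE 0.10, adjusted p = 0.000129). Hyou1, an exchange factor of BiP, rose by 0.63 on the log2 scale (SE 0.09, adjusted p = 0.0003). The chaperones of glycoproteins had log2 fold changes of 0.53 (SE 0.09) for Calr, calreticulin, and 0.45 (SE 0.10) for Canx, calnexin. Hsp90b1, the ER form of HSP90, stood at 0.62 (SE 0.10, adjusted p = 0.000514). Among enzymes that form disulfide bonds, Pdia6 rose by 0.82 (SE 0.10), Pdia4 by 0.77 (SE 0.08) and the oxidase Ero1lb by 0.76 (SE 0.09, adjusted p = 6.22e-05) on the log2 scale. P4hb, the most familiar protein disulfide isomerase, was not called, with 618 ± 28.7 and 645 ± 24.9 CPM (adjusted p = 0.552).

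Genes of ER-associated degradation, which removes misfolded proteins from the ER, and of secretory transport followed as 1 list. Of its 18 genes 11 were called higher and 0 lower, with a median log2 fold change of 0.28. The count was 6 without both samples with the lowest share of reads in genes. Derl3, a channel protein of ER-associated degradation, had 0.541, 0.443, 0.747 and 0.848 CPM in wild type and 3.65, 0.919, 2.60 and 3.17 CPM in knockout samples. Knockout sample 2 was close to the wild type range but above it, and the log2 fold change was 2.00 (SE 0.37, adjusted p = 0.00153). Herpud1, which assembles the ubiquitin ligase of the ER, went from 163 ± 35.3 to 316 ± 38.4 CPM (log2 fold change 0.96, SE 0.20, adjusted p = 0.00362). Edem1, a lectin that selects glycoproteins for disposal, rose by 0.71 on the log2 scale (SE 0.10, adjusted p = 0.000146). Sec61b, a subunit of the translocon through which proteins enter the ER, rose by 0.60 (SE 0.13, adjusted p = 0.00382).

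The sensors of ER stress did not move as a group. Of 9 sensors and factors, 1 rose, Xbp1, and 1 fell, Ern1, and the median log2 fold change was -0.05. That share of 22.2% was near the 23.0% called over all genes. The call for Ern1 was lost without any 1 of wild type samples 2 and 4 and knockout samples 2, 3 and 4. Xbp1, the factor whose messenger RNA is spliced by the sensor IRE1, had 205, 201, 212 and 198 CPM in wild type and 320, 323, 324 and 375 CPM in knockout samples. All knockout samples were above all wild type samples (log2 fold change 0.72, SE 0.09, adjusted p = 6.64e-05). The counts do not tell spliced from unspliced Xbp1. Of 21 genes of the integrated stress response, the arm that runs through ATF4, 3 rose and 0 fell. This share of 14.3% was below the 23.0% of all genes, and 1 was called without both samples with the lowest share of reads in genes. Ddit3, which encodes the stress factor CHOP, had 13.8, 18.8, 17.9 and 13.2 CPM in wild type and 30.7, 31.7, 35.4 and 36.0 CPM in knockout samples. The groups did not overlap, and the log2 fold change was 1.07 (SE 0.13, adjusted p = 7.22e-05). Atf4 itself overlapped between the groups, at 157 ± 20.5 and 159 ± 8.75 CPM (adjusted p = 0.901).

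For the heat shock genes, 3 promoters that hold the heat shock element, to which HSF1 binds, are shown from the same annotation. Hsph1 and Chordc1 belong to the cytosolic heat shock list and Hspe1 to the mitochondrial chaperones. Capitals mark matches to GAANNTTCNNGAA or to TTCNNGAANNTTC. These motifs are each other's reverse complement. The Hsph1 promoter is chr5:149636266-149636565 on the minus strand, the Chordc1 promoter chr9:18292017-18292316 on the plus strand and the Hspe1 promoter chr1:55087898-55088197 on the plus strand.
Hsph1: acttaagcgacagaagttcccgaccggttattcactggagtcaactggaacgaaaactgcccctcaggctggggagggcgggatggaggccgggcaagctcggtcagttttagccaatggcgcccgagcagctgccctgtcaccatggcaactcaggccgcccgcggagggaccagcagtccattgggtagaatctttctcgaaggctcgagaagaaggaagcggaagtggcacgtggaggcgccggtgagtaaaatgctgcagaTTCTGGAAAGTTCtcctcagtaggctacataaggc
Chordc1: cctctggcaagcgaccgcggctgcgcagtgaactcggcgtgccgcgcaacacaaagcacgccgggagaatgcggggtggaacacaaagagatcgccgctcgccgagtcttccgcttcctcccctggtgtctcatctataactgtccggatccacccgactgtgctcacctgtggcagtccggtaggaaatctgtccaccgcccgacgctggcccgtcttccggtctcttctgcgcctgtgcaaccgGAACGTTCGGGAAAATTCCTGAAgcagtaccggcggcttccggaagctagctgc
Hspe1: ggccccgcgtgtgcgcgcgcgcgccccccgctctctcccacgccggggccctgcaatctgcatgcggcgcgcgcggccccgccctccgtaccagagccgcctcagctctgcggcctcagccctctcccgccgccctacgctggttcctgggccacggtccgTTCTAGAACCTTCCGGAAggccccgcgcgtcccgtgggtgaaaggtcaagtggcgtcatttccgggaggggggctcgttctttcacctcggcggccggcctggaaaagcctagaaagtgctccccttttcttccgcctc

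In the Hsph1 promoter shown the match begins 15 bases after the start site, and 36 bases after another start site that RefSeq gives for this gene. In Chordc1 there are 3 overlapping matches, the first beginning 4 bases before the start site, and in Hspe1 there are 2 overlapping ones, of which the first begins 89 bases before the start site. The promoter of Hspa1b, the gene of the list with the largest fold, had 0 matches. Of all promoters, 198 (0.603%) held the element. Among the heat shock genes it was found in 2 of 17 (11.8%), Chordc1 and Hsph1, and among mitochondrial chaperones and proteases in 2 of 8 (25%), Hspd1 and Hspe1. It was present in 13 of 1291 genes called higher (1.01%), in 7 of 1378 called lower (0.508%) and in 50 of 8906 not called (0.561%). No ER folding gene held it.

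Of 22 cytosolic heat shock proteins and cochaperones, 17 rose and 0 fell. Their median log2 fold change was 1.31 and their summed level was 2058 to 2830 CPM in wild type and 5033 to 7393 CPM in knockout samples. Hspa8, the constitutive HSP70, had 66.0, 141, 176 and 122 CPM in wild type and 510, 490, 485 and 627 CPM in knockout samples, a log2 fold change of 2.06 (SE 0.30, edgeR adjusted p = 0.000614). Hsph1, a nucleotide exchange factor of HSP70, had 32.6, 45.3, 85.4 and 56.2 CPM in wild type and 393, 221, 218 and 444 CPM in knockout samples. Wild type sample 3 was the highest of its group for both genes and still well below every knockout sample. The log2 fold change of Hsph1 was 2.54 (SE 0.54, adjusted p = 0.00685). Hspb1, the small heat shock protein HSP27, had 38.1, 37.7, 39.6 and 25.7 CPM in wild type and 216, 116, 146 and 215 CPM in knockout samples (log2 fold change 2.30, SE 0.31, adjusted p = 0.000388).

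Cochaperones of HSP70 and HSP90 rose as well. Stip1, which joins HSP70 to HSP90, had 58.9, 63.5, 80.6 and 61.4 CPM in wild type and 277, 208, 216 and 317 CPM in knockout samples, so the lowest knockout sample was far above the highest wild type sample. Chordc1, an HSP90 cochaperone, had a log2 fold change of 1.96 (SE 0.36, adjusted p = 0.00319), and Ahsa1, the activator of the HSP90 ATPase, one of 1.35 (SE 0.17, adjusted p = 0.000132). Fkbp4, which links HSP90 to steroid receptors, stood at 1.21 (SE 0.15, adjusted p = 8.45e-05). Dnaja1, a J-domain partner of HSP70, went from 38.1 ± 15.8 to 157 ± 42.8 CPM (log2 fold change 2.04, SE 0.43, adjusted p = 0.00619). Hsp90ab1, the constitutive HSP90, went from 854 ± 102 to 1958 ± 281 CPM (log2 fold change 1.20, SE 0.17, adjusted p = 0.000281), and Hspa4l from 102 ± 11.0 to 310 ± 55.5 CPM (log2 fold change 1.61, SE 0.21, adjusted p = 0.000185). Hsf1, the regulator of these genes, was not called, with 28.8 ± 3.30 and 29.8 ± 2.83 CPM (adjusted p = 0.766). Cryab, a small heat shock protein abundant in muscle, was not called either (153 ± 5.59 and 133 ± 15.6 CPM, adjusted p = 0.108).

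The inducible HSP70 gene Hspa1b had the largest log2 fold change of the list. It had 3.95, 7.44, 46.8 and 10.7 CPM in wild type and 411, 146, 135 and 472 CPM in knockout samples, a log2 fold change of 4.08 (SE 1.09, edgeR adjusted p = 0.0201). The groups did not overlap, yet the call was lost without wild type sample 1 (adjusted p = 0.0524), 2 (0.0529) or 4 (0.0545), without knockout sample 4 (0.0518) and without the low-share pair (0.0712). Hspa1b and its neighbour Hspa1a are near-identical, so reads could be split between them and their separate counts are uncertain.

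The chaperonins of other compartments moved too. Of 10 mitochondrial chaperones and proteases, 3 rose (Hspd1, Hspe1 and Yme1l1) and 1 fell (Afg3l2). Hspd1, the mitochondrial HSP60, had 35.4, 35.7, 47.1 and 34.4 CPM in wild type and 103, 75.9, 84.9 and 130 CPM in knockout samples (log2 fold change 1.37, SE 0.22, adjusted p = 0.000978). Its lid Hspe1, encoded next to it on the opposite strand, had 15.3, 12.1, 18.2 and 12.6 CPM in wild type and 43.1, 38.4, 44.0 and 59.3 CPM in knockout samples (log2 fold change 1.67, SE 0.24, adjusted p = 0.000371). Both genes were higher in every knockout sample than in any wild type sample. All 8 subunits of TRiC, the cytosolic chaperonin that folds actin and tubulin, rose, and their median log2 fold change was 0.56. Examples were Cct7 (0.72, SE 0.10), Cct3 (0.65, SE 0.11), Cct4 (0.63, SE 0.11) and Tcp1 (0.45, SE 0.09), all without overlap between the groups. In room air the median log2 fold change between genotypes was 0.26 for the ER folding genes, 0.27 for the cytosolic heat shock genes and 0.07 for the TRiC subunits.

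**Figure D2:**
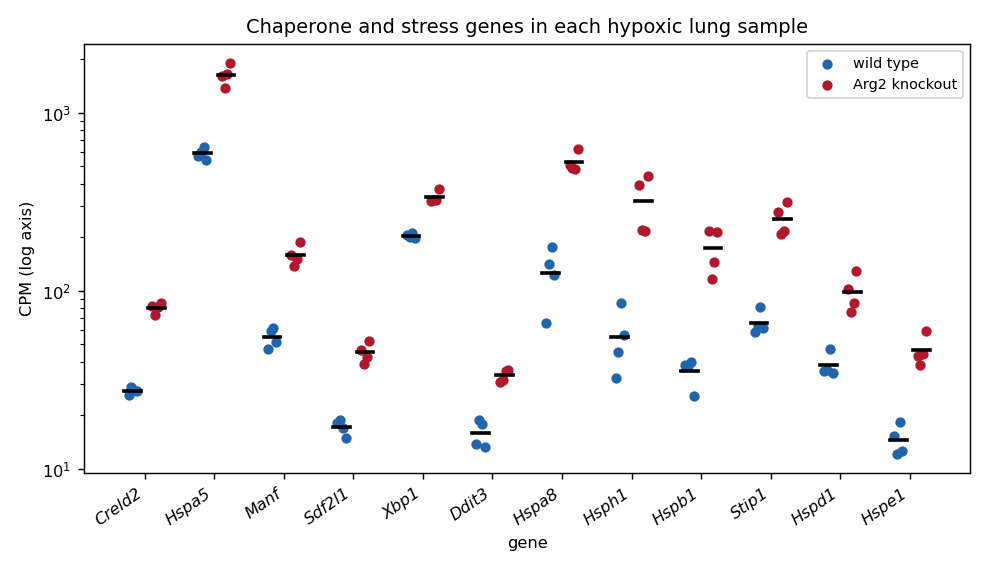
Levels in CPM, on a log axis, of 12 chaperone and stress genes in each of the 4 wild type (blue) and 4 knockout (red) hypoxia samples, with a black line at each group mean. For every gene drawn all 4 knockout samples lie above all 4 wild type samples, and the wild type samples spread most for Hspa8 (66.0 to 176 CPM) and Hsph1 (32.6 to 85.4 CPM).

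**Figure D3:**
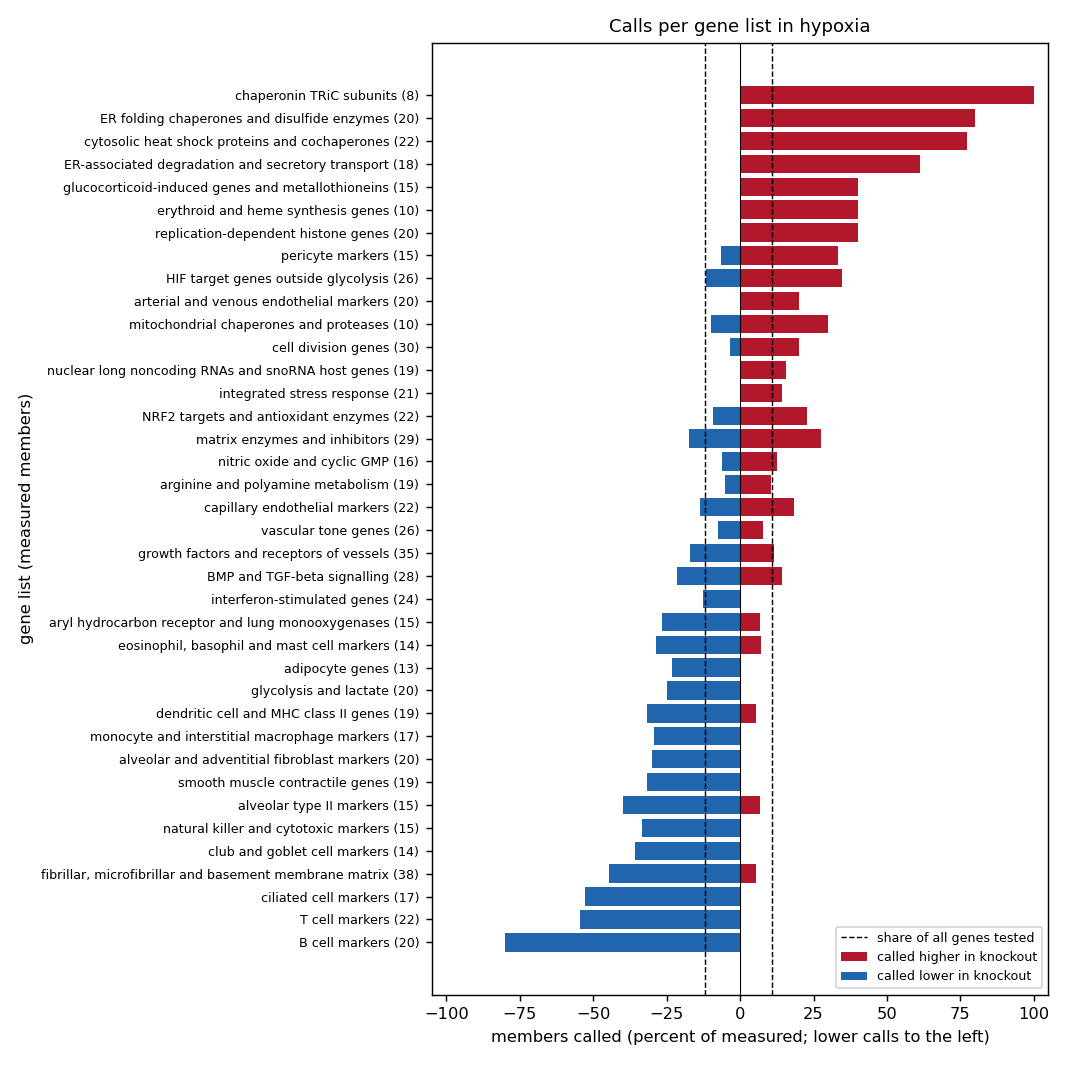
Bars give the percentage of the measured members of each gene list that were called higher (red, to the right) or lower (blue, to the left) in the knockout in hypoxia, for 38 lists, with the number measured in brackets. Dashed lines mark the shares over all genes, 11.0% higher and 12.1% lower, and the chaperonin, heat shock and ER folding lists reach farthest to the right while the B cell and T cell lists reach farthest to the left.

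Most of the B cell and T cell markers fell in the knockout. All 20 B cell markers measured had negative log2 fold changes and 16 were called lower, with a median of -1.14. Their summed level was 157.7 to 238.7 CPM in wild type and 78.7 to 121 CPM in knockout samples. In whole lung, fewer cells of a type and less RNA per cell cannot be told apart. Cd79a, a chain of the B cell receptor, had 9.25, 6.59, 7.68 and 4.56 CPM in wild type and 2.76, 2.88, 1.53 and 0.874 CPM in knockout samples. The groups did not overlap, and the log2 fold change was -1.81 (SE 0.35, edgeR adjusted p = 0.00276). Fcer2a, the low affinity IgE receptor CD23 of mature B cells, had a log2 fold change of -2.03 (SE 0.42, adjusted p = 0.00448). Cxcr5, which guides B cells into follicles, had -1.61 (SE 0.32, adjusted p = 0.00269), and the inhibitory receptor Cd22 had -1.01 (SE 0.18, adjusted p = 0.00146). Without both samples with the lowest share of reads in genes 10 B cell markers were called lower. In room air the list's median was -0.68, and the difference between the genotype effects in hypoxia and in room air was called for 0 of the 20.

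Of 22 T cell markers, 12 fell and 0 rose, with a median log2 fold change of -0.94 and summed levels of 136.5 to 151.7 CPM in wild type and 78.5 to 115 CPM in knockout samples. Cd6, an adhesion receptor of T cells, had 2.00, 2.92, 1.95 and 3.69 CPM in wild type and 0.691, 0.459, 1.30 and 0.402 CPM in knockout samples (log2 fold change -1.98, SE 0.39, adjusted p = 0.00215). Cd3e, a defining chain of the T cell receptor complex, was at 2.23 ± 0.353 and 0.925 ± 0.371 CPM (log2 fold change -1.27, SE 0.30, adjusted p = 0.00692). Its groups did not overlap either, although at these levels counts were few. Ccr7, which directs lymphocytes to lymph nodes, had 11.6, 18.5, 15.8 and 11.6 CPM in wild type and 7.21, 6.81, 5.76 and 5.25 CPM in knockout samples (log2 fold change -1.20, SE 0.27, adjusted p = 0.00571). Without both samples with the lowest share of reads in genes, 4 T cell markers were called lower and Cd3e missed the threshold (adjusted p = 0.0586). The median of the T cell list in room air was -0.06. The difference between the genotype effects in hypoxia and in room air was called for 1 of the 22. For the others the hypoxia values are not shown to differ from those in room air.

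Several of the most significant genes outside these lists are also known from leukocytes. Spn, the leukocyte surface protein CD43, had 33.7, 34.1, 28.1 and 37.1 CPM in wild type and 16.8, 14.0, 13.3 and 11.5 CPM in knockout samples (log2 fold change -1.26, SE 0.12, adjusted p = 9.5e-06). The adaptor Fyb had -0.87 (SE 0.09, adjusted p = 1.38e-05), the kinase Prkcb of B cell receptor signalling -1.19 (SE 0.14, adjusted p = 3.91e-05) and Fam65b, an inhibitor of small GTPase signalling in leukocytes, -1.34 (SE 0.12, adjusted p = 2.74e-06). For Fyb, Prkcb and Fam65b the difference between the genotype effects in hypoxia and in room air was itself called, with adjusted p values of 0.017, 0.024 and 0.0076.

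Natural killer and cytotoxic markers had 5 of 15 called lower, with a median of -0.75, and 3 without knockout sample 3, without knockout sample 4 or without the low-share pair. Il2rb, a chain of the IL2 and IL15 receptors, went from 13.5 ± 2.59 to 7.10 ± 1.70 CPM (log2 fold change -0.94, SE 0.22, adjusted p = 0.00784). Among 14 markers of eosinophils, basophils and mast cells, 4 fell and 1 rose. Ccr3, the eotaxin receptor, had 3.03, 3.46, 2.41 and 5.94 CPM in wild type and 0.559, 0.376, 0.169 and 0.473 CPM in knockout samples, and all knockout samples were below 0.6 CPM. Its log2 fold change was -3.15 (SE 0.41, adjusted p = 0.000132). Alox15, a lipoxygenase abundant in eosinophils, was at 4.50 ± 1.40 and 0.661 ± 0.535 CPM (log2 fold change -2.64, SE 0.45, adjusted p = 0.00102). The gene called higher in this list, Prg2, lost its call without knockout sample 2.

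In the lists of monocytes, macrophages, neutrophils and dendritic cells 1 gene was called higher and the other calls were lower. Called either way were 29.4% of the monocyte, 6.25% of the alveolar macrophage, 14.3% of the neutrophil and 36.8% of the dendritic cell list. The interferon list had 12.5%, and over all genes 23.0% were called, so only part of these lists exceeded that share. Of 17 markers of monocytes and interstitial macrophages 5 fell and 0 rose, with a median of -0.20. Cx3cr1, the fractalkine receptor of patrolling monocytes, had 24.9, 15.4, 12.8 and 16.5 CPM in wild type and 7.93, 11.4, 8.93 and 5.69 CPM in knockout samples (log2 fold change -1.04, SE 0.24, adjusted p = 0.00581). The lowest wild type sample and the highest knockout sample lay close together. Treml4 had the same log2 fold change of -1.04 (SE 0.20, adjusted p = 0.00219), and Csf1r, the receptor that macrophages need to survive, went from 135 ± 13.4 to 95.8 ± 9.15 CPM (-0.49, SE 0.10, adjusted p = 0.00265). Of 16 alveolar macrophage markers, 1 was called lower, and 5 without wild type sample 4. Of 14 neutrophil markers, 2 were called lower, and 0 without any 1 of wild type sample 2 and knockout samples 2, 3 and 4 or without the low-share pair. The list of 19 dendritic cell and MHC class II genes had 6 lower and 1 higher, with 3 lower without knockout sample 4 or without the low-share pair and 10 lower without wild type sample 4. Its member H2-Ob, which tunes antigen loading in B cells, went from 25.6 ± 5.52 to 12.8 ± 3.06 CPM (log2 fold change -0.99, SE 0.22, adjusted p = 0.005). Interferon-stimulated genes had 3 of 24 called lower, 5 without wild type sample 1, with Oas3 at -1.23 (SE 0.25, adjusted p = 0.0032) and a list median of -0.05.

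**Figure D4:**
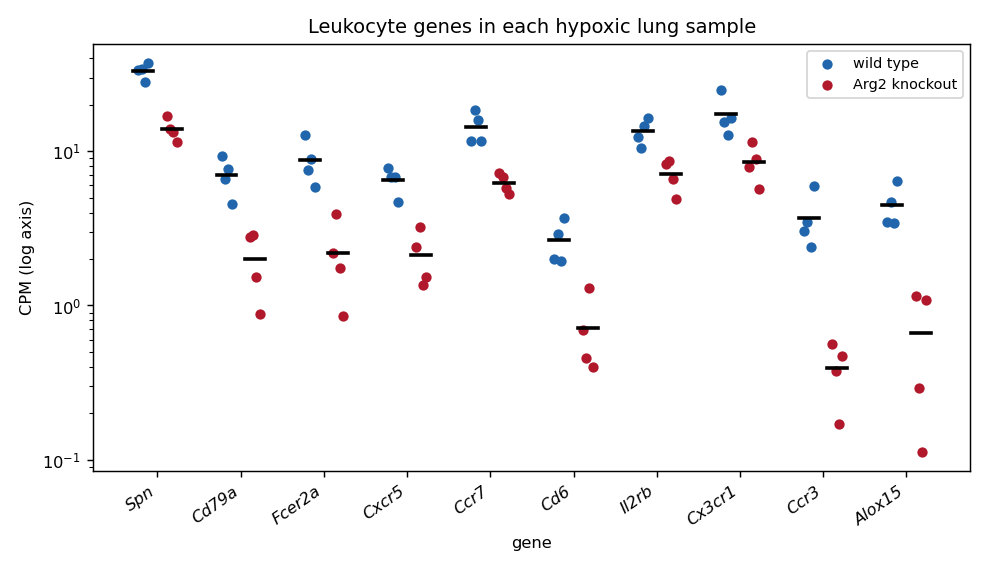
Levels in CPM, on a log axis, of 10 leukocyte genes in each of the 4 wild type (blue) and 4 knockout (red) hypoxia samples, with a black line at each group mean. All 4 knockout samples lie below all 4 wild type samples for every gene drawn, and the gap is widest for Ccr3, at 2.41 CPM or more in wild type and 0.559 CPM or less in the knockout.

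In the epithelium, part of the markers of ciliated and secretory cells fell, while Foxj1 and Scgb1a1, which define these cells, were not called. Of 17 ciliated cell markers 9 fell and 0 rose, but the count was 2 without wild type sample 4, 5 without knockout sample 4, without the low-share pair or without both knockout samples with pancreatic RNA. Ccdc40, needed to assemble motile cilia, had 30.1, 26.5, 31.6 and 41.9 CPM in wild type and 19.3, 21.5, 16.04 and 17.5 CPM in knockout samples (log2 fold change -0.81, SE 0.13, edgeR adjusted p = 0.000648). Dnah9, an outer arm dynein, had 67.9, 61.2, 65.8 and 111 CPM in wild type and 53.8, 49.0, 42.1 and 47.2 CPM in knockout samples (-0.67, SE 0.16, adjusted p = 0.0064). Wild type sample 4 was the highest for both genes, and no sample overlapped. Foxj1, the regulator of ciliated cells, had 65.9 ± 14.6 and 73.5 ± 12.9 CPM (adjusted p = 0.522).

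Of 14 club and goblet cell markers 5 fell and 0 rose, with 2 called without wild type sample 3, knockout sample 3 or the low-share pair and 3 without wild type sample 4 or knockout sample 4. Muc5b, the main airway mucin of the mouse, had 180, 110, 155 and 236 CPM in wild type and 60.5, 76.9, 37.1 and 47.0 CPM in knockout samples (log2 fold change -1.62, SE 0.33, adjusted p = 0.00472). Fcgbp, a protein of mucus that was no member of that list, had 8.36 ± 1.98 and 2.43 ± 0.902 CPM (-1.78, SE 0.28, adjusted p = 0.0004). Scgb1a1, the defining club cell secretoglobin, overlapped between groups (15123 ± 2320 and 13183 ± 864 CPM, adjusted p = 0.322).

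Type II cell genes were mixed, with 6 of 15 lower and 1 higher. Etv5, a transcription factor that maintains type II cells, had 157, 144, 155 and 137 CPM in wild type and 94.6, 95.6, 89.0 and 80.7 CPM in knockout samples (log2 fold change -0.72, SE 0.09, adjusted p = 8.45e-05). Abca3, the surfactant lipid transporter, went from 721 ± 58.5 to 452 ± 64.1 CPM (-0.67, SE 0.13, adjusted p = 0.00212). Il33, an alarmin stored in the nuclei of type II cells, had 148, 114, 169 and 112 CPM in wild type and 285, 224, 286 and 344 CPM in knockout samples. Every knockout sample was above every wild type sample (1.07, SE 0.17, adjusted p = 0.000743). Outside that list, Elf5, an epithelial transcription factor of the distal lung, had 26.5, 21.5, 24.5 and 25.3 CPM in wild type and 13.03, 12.3, 13.3 and 12.003 CPM in knockout samples. The groups were tight and did not overlap (log2 fold change -0.95, SE 0.10, adjusted p = 1.72e-05), whereas the room air value was 0.03, and the difference between these effects had an adjusted p of 0.0024. Surfactant gene Sftpc was not called (adjusted p = 0.859). Of 13 type I markers 2 were called lower (15.4%, against 12.1% of all genes).

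In the vessel wall, part of the markers of pericytes, smooth muscle and endothelium were called, in both directions for pericytes and capillaries. Called either way were 40% of the pericyte, 31.6% of the smooth muscle and 31.8% of the capillary list, against 23.0% over all genes. Rgs5, a regulator of G protein signalling that marks pericytes, had 28.9, 30.2, 33.0 and 13.02 CPM in wild type and 119, 173, 165 and 154 CPM in knockout samples (log2 fold change 2.54, SE 0.31, edgeR adjusted p = 0.000204). Every knockout sample was above every wild type sample. Of 15 pericyte markers 5 rose and 1 fell, and the median was 0.04. The number that rose was 3 without both knockout samples with pancreatic RNA and 3 without the low-share pair. The calcium channel gene Trpc6 had a log2 fold change of 0.41 (SE 0.09, adjusted p = 0.00448). Pdgfrb, the defining receptor of pericytes, was the member called lower, and that call was lost without wild type sample 4 or knockout sample 4. Of 19 smooth muscle contractile genes 6 fell and 0 rose, with 3 called without wild type sample 2, wild type sample 4 or knockout sample 2 or with the GC trend removed, and 2 without knockout sample 4 or without the low-share pair. Their summed level was 2552 to 2909 CPM in wild type and 2170 to 2726 CPM in knockout samples, and these ranges overlapped. Acta2 was at 237 ± 42.5 and 195 ± 36.7 CPM (adjusted p = 0.205).

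Capillary endothelial markers had 4 of 22 higher and 3 lower, and 2 higher and 2 lower without the low-share pair. Npr3, the clearance receptor of natriuretic peptides and no member of that list, had 51.2, 61.5, 103 and 92.9 CPM in wild type and 374, 231, 407 and 379 CPM in knockout samples. It was higher in every knockout sample than in any wild type sample (log2 fold change 2.17, SE 0.30, adjusted p = 0.000514). Tmem100, an endothelial gene induced by BMP9 and ALK1, had 328, 421, 415 and 299 CPM in wild type and 581, 636, 655 and 706 CPM in knockout samples (0.82, SE 0.12, adjusted p = 0.00025). Kdr, the main receptor of VEGF, fell by 0.51 on the log2 scale (SE 0.10, adjusted p = 0.0029), from 453 ± 27.3 to 318 ± 35.5 CPM. The defining marker Cdh5 was called lower in the fit of all samples but not without any 1 of the 4 wild type samples (adjusted p = 0.0901, 0.0576, 0.0648 and 0.120 in their order) or knockout samples 2, 3 and 4 (0.0615, 0.137 and 0.143), nor without the GC trend (0.166) or the low-share pair (0.217). Leaving out wild type sample 1 or knockout samples 1, 2 or 4 of room air gave 0.0515 to 0.0555. Arterial and venous markers had 4 of 20 higher and 0 lower, and this share of 20% was below the 23.0% called over all genes. Hey1, a Notch and BMP target of arterial endothelium, had 33.8, 42.4, 54.1 and 47.7 CPM in wild type and 101, 118, 104 and 108 CPM in knockout samples. Its log2 fold change was 1.27 (SE 0.17, adjusted p = 0.000202) in hypoxia and -0.04 in room air, a difference with an adjusted p of 0.02.

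BMP receptors signal through SMAD1 and its relatives to the inhibitor of differentiation genes, and loss of this pathway is linked to pulmonary hypertension. Of 28 genes of BMP and TGF-beta signalling, 4 rose and 6 fell. The genes called higher were targets and a mediator of the pathway, Id1, Id3, Smad6 and Smad1. Id1 had 60.2, 69.3, 71.7 and 55.9 CPM in wild type and 151, 134, 121 and 146 CPM in knockout samples (log2 fold change 1.10, SE 0.12, adjusted p = 3.91e-05), and Id3 rose by 0.74 (SE 0.13, adjusted p = 0.00113). Smad6, the inhibitor that BMP signalling itself induces, had 53.1, 51.8, 51.6 and 81.2 CPM in wild type and 122, 113, 119 and 101 CPM in knockout samples (0.93, SE 0.12, adjusted p = 0.00013). Wild type sample 4 was the highest of its group and still below every knockout sample. The ligands Bmp6 (-0.59, SE 0.14, adjusted p = 0.00562) and Tgfb2 (-0.55, SE 0.11, adjusted p = 0.00193) were lower. The lower calls numbered 2 without wild type sample 1, knockout sample 3, knockout sample 4 or the low-share pair, and 3 without wild type sample 2 or 3 or knockout sample 2 or with the GC trend removed. For Id1 and Smad6 the effect differed between hypoxia and room air, with adjusted p values of 0.029 and 0.036. These calls for the difference were kept in 19 and 15 of 28 alternatives.

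Of the matrix genes a part was called. Of 38 genes of fibrillar, microfibrillar and basement membrane matrix, 17 fell and 2 rose, Fbln2 and Fbln5, and the summed level was 12246 to 13745 CPM in wild type and 9875 to 12581 CPM in knockout samples, so the sums overlapped. The number called lower depended on single samples, at 11, 7 and 9 without wild type samples 1, 2 and 4 and at 8, 6 and 6 without knockout samples 2, 3 and 4. It was 3 without both samples with the lowest share of reads in genes. Col6a3, a chain of microfibrillar collagen VI, had 245, 271, 221 and 240 CPM in wild type and 205, 153, 153 and 130 CPM in knockout samples, without overlap (log2 fold change -0.61, SE 0.11, edgeR adjusted p = 0.00153). Fbln2, a fibulin of elastic fibres and basement membranes, had 49.1, 50.7, 51.7 and 39.0 CPM in wild type and 91.9, 93.2, 82.8 and 77.6 CPM in knockout samples (0.86, SE 0.15, adjusted p = 0.000817). In room air its value was -0.32, and the difference between the effects had an adjusted p of 0.015.

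Among 29 matrix enzymes and inhibitors 8 rose and 5 fell, with 3 lower without wild type sample 1 or 2 and 2 without knockout sample 2 or 4 or the low-share pair. The higher ones included the prolyl hydroxylase subunits P4ha1 and P4ha2, the lysyl hydroxylases Plod1 and Plod2, and Serpinh1, the collagen chaperone HSP47. Serpinh1 had 443, 383, 428 and 304 CPM in wild type and 846, 696, 779 and 798 CPM in knockout samples (log2 fold change 1.00, SE 0.16, adjusted p = 0.000514). P4ha1 had 120, 136, 151 and 123 CPM in wild type and 331, 250, 278 and 399 CPM in knockout samples (1.25, SE 0.19, adjusted p = 0.000556). In both genes all knockout samples were above all wild type samples. P4ha2 went from 53.6 ± 6.34 to 94.8 ± 10.5 CPM (0.82, SE 0.11, adjusted p = 0.00015) and Plod2 from 80.8 ± 7.57 to 110 ± 10.7 CPM (0.45, SE 0.10, adjusted p = 0.00352).

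Targets of the hypoxia-inducible factors (HIF), which act when oxygen is low, were divided. Of 26 measured targets outside glycolysis 9 rose and 3 fell, with a median of 0.13. Those that rose included P4ha1, P4ha2 and Plod2 above. Ndrg1, a stress response gene, had 67.9, 71.5, 59.2 and 57.8 CPM in wild type and 128, 107, 121 and 126 CPM in knockout samples (log2 fold change 0.91, SE 0.11, edgeR adjusted p = 7.22e-05), and Hmox1, the inducible heme oxygenase, rose from 36.4 ± 2.25 to 56.1 ± 5.07 CPM (0.62, SE 0.09, adjusted p = 0.000194). Ankrd37 fell, with 50.1, 27.8, 7.18 and 7.43 CPM in wild type and 2.76, 3.38, 3.84 and 4.13 CPM in knockout samples. Its wild type samples split into a high and a low pair, both above the knockout range (log2 fold change -2.70, SE 0.52, adjusted p = 0.00337). Hif1a had a log2 fold change of 0.44 (SE 0.08, adjusted p = 0.00199), and 0.21 once the trend with GC content was removed (adjusted p = 0.0542), which missed the threshold. Of 20 glycolysis genes 5 fell and 0 rose, and their median was -0.17. That share of 25% compares with 12.1% of all genes called lower and 23.0% called either way. The number called was 3 without knockout sample 4 and 2 without both samples with the lowest share of reads in genes.

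Among 15 genes induced by glucocorticoids and metallothioneins, 6 rose and 0 fell, but 3, 2 and 1 without knockout samples 1, 3 and 4, 2 without the low-share pair and 1 without both knockout samples with pancreatic RNA. Sgk1, a kinase of ion transport, went from 219 ± 36.6 to 347 ± 32.9 CPM (log2 fold change 0.66, SE 0.13, adjusted p = 0.00191). Of 22 NRF2 targets and antioxidant enzymes, 5 rose, 3 without knockout sample 4, and 2 fell. All 20 measured replication-dependent histone genes had positive log2 fold changes, with a median of 0.63, and 8 were called higher. That number was 5 and 4 without wild type samples 1 and 4 and 3, 5 and 4 without knockout samples 2, 3 and 4, and 4 without the low-share pair. Hist1h2bc had 48.1, 58.1, 59.4 and 44.2 CPM in wild type and 84.5, 94.8, 102 and 115 CPM in knockout samples (0.92, SE 0.12, adjusted p = 0.000117), and the linker histone Hist1h1c went from 138 ± 29.0 to 210 ± 21.3 CPM (0.61, SE 0.15, adjusted p = 0.00763). Of 30 cell division genes 6 rose and 1 fell, a share of 23.3% near the 23.0% of all genes. Only 2 or 3 rose without wild type sample 2 or 4, knockout sample 2 or 4 or both knockout samples with pancreatic RNA.

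Genes of the exocrine pancreas were present in part of the knockout samples. Of 18 listed acinar genes 5 passed the filter on low counts and 4 were called higher, and all 18 summed to 2698, 208, 31 and 10 CPM in knockout samples 1 to 4 and to 7 to 16 CPM in wild type samples. Pnliprp1, a pancreatic lipase relative, had 143, 11.3, 2.54 and 1.21 CPM in the knockout and 0.747 to 1.02 CPM in wild type samples. The signal was highest in knockout samples 1 and 2, and without both of them Pnliprp1 had an adjusted p of 0.0920. Ctrl, a chymotrypsin-like protease, had 79.7, 7.73, 2.09 and 1.70 CPM in the knockout and 0.413 to 0.789 CPM in wild type samples. The edgeR adjusted p of all 8 samples was 0.0131 for Pnliprp1 and 0.0085 for Ctrl, and that of limma voom 0.20 and 0.101. Without both samples the number of called genes was 2755. In that fit 15 of 20 ER folding, 15 of 22 cytosolic heat shock and 8 of 8 TRiC genes were called higher. So was 1 of 15 glucocorticoid-induced genes and metallothioneins, and 17 of 20 B cell markers were called lower. The part of the pancreatic RNA in the results with all samples was not tested.

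Outside the lists, further genes had small p-values in the comparison of genotypes in hypoxia. Tiam1, an activator of the GTPase RAC1, had 89.0, 83.3, 65.7 and 77.4 CPM in wild type and 31.8, 28.8, 28.1 and 27.4 CPM in knockout samples (log2 fold change -1.44, SE 0.11, edgeR adjusted p = 6.08e-07). Gprasp1, which sorts G protein-coupled receptors for degradation, had 46.7, 54.3, 54.4 and 57.6 CPM in wild type and 117, 97.2, 110 and 121 CPM in knockout samples (1.06, SE 0.10, adjusted p = 2.74e-06). Neither gene overlapped between the groups. Itga6, an integrin chain that binds laminin, had 328, 312, 327 and 283 CPM in wild type and 528, 526, 597 and 545 CPM in knockout samples (0.81, SE 0.09, adjusted p = 2.03e-05). Mcf2l, an exchange factor of small GTPases, had 89.4, 124, 103 and 127 CPM in wild type and 246, 247, 239 and 240 CPM in knockout samples (1.13, SE 0.15, adjusted p = 0.000189). Its knockout samples differed by little and lay far above the wild type. Ndnf, a secreted protein of the neuron-derived neurotrophic factor family, had 403, 381, 380 and 431 CPM in wild type and 243, 215, 212 and 281 CPM in knockout samples (-0.75, SE 0.09, adjusted p = 4.85e-05).

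Further genes called lower were Wdr6, with 114 ± 1.86 and 59.2 ± 6.79 CPM (log2 fold change -0.94, SE 0.10, adjusted p = 2.03e-05), Ptpro, a receptor tyrosine phosphatase, with 8.24 ± 0.395 and 3.52 ± 0.599 CPM (-1.22, SE 0.15), and Lrrc3b, with 5.36 ± 2.09 and 1.37 ± 0.422 CPM (-1.99, SE 0.42). Transcripts of little known function rose as well, 4930486L24Rik from 5.07 ± 1.31 to 16.4 ± 1.64 CPM (1.70, SE 0.19) and 1700007K13Rik from 8.43 ± 1.74 to 21.8 ± 2.72 CPM (1.37, SE 0.16).

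The mice were of mixed strain, and the neighbours of Arg2 on chromosome 12 were counted apart. Within 1 megabase 4 of 16 tested genes (25%) were called, within 5 megabases 18 of 77 (23.4%) and within 10 megabases 53 of 182 (29.1%), against 82 of 357 (23.0%) on the rest of the chromosome. Within 1 megabase the called genes were Mpp5 (log2 fold change 0.54, SE 0.13), Vti1b (0.27, SE 0.10), Zfyve26 (-0.43, SE 0.12) and 2310015A10Rik. Mthfd1, an enzyme of one-carbon metabolism that lies 2.81 megabases from Arg2, had 168, 193, 177 and 144 CPM in wild type and 94.0, 91.7, 83.0 and 89.6 CPM in knockout samples. The groups did not overlap, with a log2 fold change of -0.93 (SE 0.08, adjusted p = 2.57e-06), and it was also lower in room air (-0.50, adjusted p = 0.027). Ahsa1 and Hif1a also lie within 10 megabases. The strain origin of these segments was not tested.

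In room air the edgeR fit of all samples called 12 of 15761 genes between genotypes (0.0761%), 10 of them also called in hypoxia, and 3406 had an unadjusted p under 0.05. This count rested on single samples. Without wild type room air sample 3, which stood apart as described, 2197 genes were called in room air (13.8%), and 997 of them were among those called in hypoxia. Without any other single room air sample it was 0 to 3, and without a single hypoxia sample, which enters through the shared spread, 0 to 296. With all samples DESeq2 called 1119 and limma voom 973, so the data do not fix how many genes differed in room air. Of the 1732 genes called higher in hypoxia, 1430 (82.6%) had a positive log2 fold change in room air, and of the 1900 called lower 1594 (83.9%) had a negative one, while over all genes 47.5% were positive. Hypoxia and room air groups are separate samples. The median of the genes called higher was 0.42 in hypoxia and 0.18 in room air, and that of the genes called lower -0.56 and -0.20. Without wild type room air sample 3 the room air medians were 0.24 and -0.24. The hypoxia medians are those of genes selected in hypoxia, so no test was made of these pairs.

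The difference between the genotype effects in hypoxia and in room air was called for 79 genes (0.501%), 44 with a higher and 35 with a lower effect in hypoxia, and all 79 were among the genes called in hypoxia. At an unadjusted p under 0.05 there were 2225. The number fell to 37 without wild type sample 1, to 48, 38 and 43 without knockout samples 1, 3 and 4, to 20 without both knockout samples with pancreatic RNA and to 8 without the low-share pair. It was 40 without wild type room air sample 4, 26 without knockout room air sample 1 and 125 without wild type room air sample 1. The call for the difference was followed for 28 genes named here, and 16 to 28 of them kept it when 1 sample was left out. The number was 14 without both knockout samples with pancreatic RNA and 7 without the low-share pair. Creld2, Ccr3, Elf5, Itga6, Gprasp1, Tiam1 and 6430548M08Rik kept it in all 28 alternatives. ER folding genes made up 4 of the 79, Creld2 (difference 1.13 on the log2 scale, SE 0.14, adjusted p = 0.0015), Hspa5 (1.08, SE 0.18, adjusted p = 0.0087), Manf (1.24, SE 0.20, adjusted p = 0.0081) and Ero1lb (0.69, SE 0.13, adjusted p = 0.017). Cytosolic heat shock genes made up 2, Ahsa1 (1.16, adjusted p = 0.04) and Fkbp4 (1.07, adjusted p = 0.027). TRiC subunits made up 1, Cct7 (0.66, SE 0.14, edgeR adjusted p = 0.045), which was not among the 28 genes followed. For Ccr3 the effect turned from 0.71 in room air, where it was not called, to -3.15 in hypoxia (difference -3.87, adjusted p = 0.0024). Gprasp1 (difference 1.07, adjusted p = 0.0015) and Tiam1 (-1.11, adjusted p = 0.0024) were among the smallest p-values. Serpina9, a serpin of germinal centre B cells, had 4.22, 2.22, 3.57 and 3.66 CPM in wild type and 0.790, 1.34, 0.847 and 1.04 CPM in knockout hypoxia samples, and its difference was -1.92 (adjusted p = 0.008). For most chaperone genes, Hspa8 among them (difference 1.81, adjusted p = 0.067), the difference between the effects was not called, so their larger hypoxia values are not shown to differ from those in room air.

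**Figure D5:**
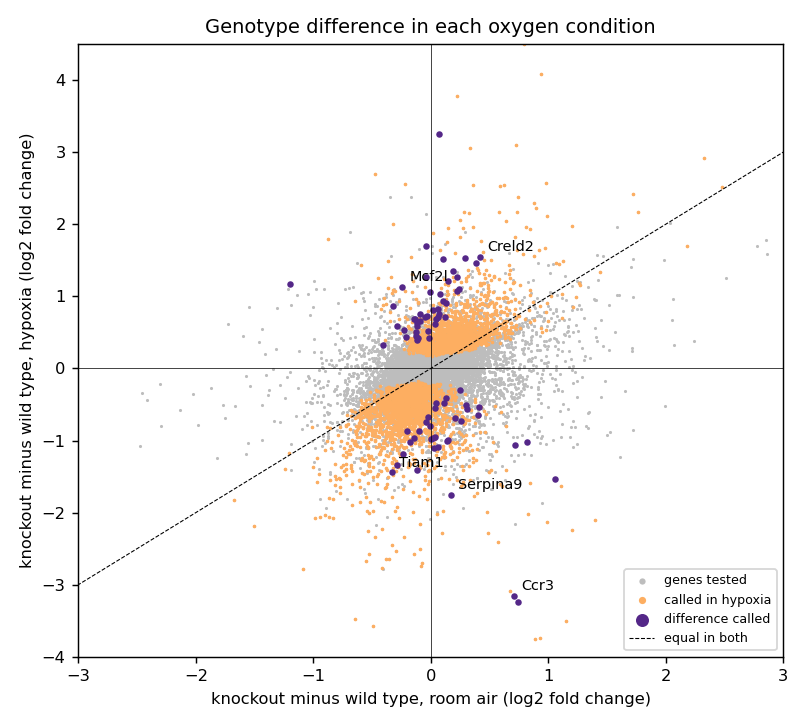
Each point is a gene, placed by its log2 fold change of knockout against wild type in room air and in hypoxia, with the dashed line where both are equal. Genes called in hypoxia are orange (3632), the 79 genes whose effects differed are purple, 33 genes lie outside the axes, and Creld2 and Mcf2l lie above the dashed line while Ccr3 and Tiam1 lie below it.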

How the data were processed

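RNA-seq libraries of whole mouse lung were deposited as tables of raw counts of reads per gene symbol. Per the submitters' processing notes, the authors used Trim Galore, TopHat2, HTSeq and mm10, with no versions, annotation or strand setting stated, so reads of overlapping genes on opposite strands cannot be told apart. Of 24062 listed genes, 98.3% matched a GENCODE symbol, 905 of them through an older symbol listed in RefSeq. The 5 lines that name no gene were left out. The A and B libraries of a room air number were summed, because they differed by a chi-square per degree of freedom of 1.53 to 2.07, against 3.73 or more between numbers, which made 16 samples of 20 libraries.

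The counts were analysed with edgeR 4.0.16 in R 4.3.3. Genes were kept by filterByExpr (minimum count 10, minimum total 15), which left 15766 and removed 8296, and libraries were scaled by TMM. A robust quasi-likelihood fit of all 4 groups gave two-sided tests of knockout against wild type in hypoxia and of its difference from room air, with 12 residual degrees of freedom before moderation and a biological coefficient of variation of 15.8%. Genes on the Y chromosome, Xist and Tsix, 5 in all, stayed out of counts of calls. Standard errors come from the estimate and its F statistic. On simulated counts for 15625 genes with 200 changed, 136 were called, 52.5% of those changed 1.5-fold and 78% of those changed 2-fold, with 6 false calls. The simulated counts were drawn independently for each gene and sample, without a GC trend or samples that stood apart. These rates therefore do not carry over to the data.

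Gene lists (54, with 915 measured genes) are described by counts and medians without a set test. The members and lists were chosen with earlier results of these data known. A rule on arginine genes, fold change, p-value, lists, the difference between effects, chromosome 12 and cell type markers took 303 genes, of which the text gives part, and some are not reported here. Hsp90b1, Calr, Canx, Dnajb9, P4hb, Atf4, Chordc1, Hsf1, Cryab, Tcp1 and Plod2 were chosen after their values were seen. Alternatives were DESeq2 1.42.0, voom of limma 3.58.1, other scalings and filters, the hypoxia groups alone, a replicate block, removal of the trend with GC content, only library A, and leaving out libraries, with the room air samples left out in turn after the data were seen.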

Additional observations from a re-analysis of the deposited data

Results flagged for a closer look

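Single samples that lay far from the other 3 of their group were sought by Dixon's ratio of the gap to the range. Of 236 tests of named genes 20 were positive, and chance gives about 1 in 20. In wild type hypoxia these were Dnajb9 in sample 2 (22.4 CPM) and Hspa4l in sample 2 (85.2 CPM), Hspa1b (46.8 CPM), Hspd1 (47.1 CPM) and Cct4 (159 CPM) in sample 3, and Cd3e in sample 1 (2.76 CPM). In sample 4 they were Hspb1 (25.7 CPM), Dnah9 (111 CPM), Smad6 (81.2 CPM), Bmp6 (68.9 CPM) and Sgk1 (165 CPM). That sample also had 27.9% of its reads in the 10 most abundant genes.

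In knockout hypoxia they were Hsf1 (34.0 CPM), Pnliprp1 (143 CPM) and Ctrl (79.7 CPM) in sample 1 and Gch1 in sample 3 (28.8 CPM). Knockout sample 4 held Xbp1 (375 CPM), Atf4 (172 CPM), Cct4 (242 CPM), Fam65b (15.4 CPM) and Scgb1a1 (14470 CPM). The Bmp6 and Smad6 values are the highest of the wild type samples, as is Hspa1b.

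For 28 named genes that were followed, the genotype effect in hypoxia differed from that in room air by the edgeR test with all samples. Only 14 of them kept that call without both knockout samples with pancreatic RNA, and 7 without the low-share pair. Cct7 was also called for the difference (0.66 on the log2 scale, edgeR adjusted p = 0.045) but was not followed. The effect in hypoxia exceeded that in room air, on the log2 scale, by 1.13 for Creld2, 1.08 for Hspa5, 1.24 for Manf, 0.69 for Ero1lb, 0.59 for Xbp1, 0.84 for Ddit3, 1.16 for Ahsa1 and 1.07 for Fkbp4 among stress genes. Among vessel and matrix genes the excess was 1.31 for Hey1, 0.80 for Itga6, 0.86 for Id1, 0.83 for Smad6, 1.18 for Fbln2 and 0.76 for P4ha2. Ndrg1 had 0.78, Hmox1 0.74, Gprasp1 1.07, Mcf2l 1.38, 6430548M08Rik 0.88 and 4930486L24Rik 1.74. The difference was negative for the leukocyte genes Fyb (-0.67), Prkcb (-0.96), Fam65b (-1.06), Ccr3 (-3.87) and Serpina9 (-1.92), and for Elf5 (-0.98), Ndnf (-0.71) and Tiam1 (-1.11).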

How the results depend on the processing

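Of 107 called genes followed through 30 settings, 19 planned and 11 chosen after seeing the data, 97 kept their call in all. These genes were chosen from these same data, many for a small p-value or a large fold change, which favours keeping a call. Of all 3632 called genes, 2055 were called again without knockout sample 4 and 1496 without the low-share pair. No gene called with all samples was called in the opposite direction in any setting. With 1 replicate left out, the calls ranged from 2092 to 4336 (972 to 2181 higher, 1120 to 2155 lower), those for the difference between effects from 26 to 125 and those in room air from 0 to 2197. Without both samples with the fewest reads in genes, 1517 genes were called (688 higher, 829 lower), 8 for the difference, 6 of ER-associated degradation, 10 B cell, 4 T cell, 3 natural killer, 3 matrix, 5 ciliated and 4 histone genes. Without both knockout samples with pancreatic RNA, 20 were called for the difference and 5 ciliated genes. For the difference, DESeq2 called 484 and the removal of the GC trend 178. In room air 29 genes were called with size factors by relative log expression, 113 with upper quartile scaling, 20 with no filter, 34 with the stricter filter, 1119 by DESeq2, 973 by limma voom, 66 without the GC trend, 207 with library A of each pair, 1 without both knockout samples with pancreatic RNA and 0 without both samples with the fewest reads in genes. Calls for the difference were kept in the fewest of 28 alternatives by Ddit3 (11), Xbp1, Ahsa1 and Smad6 (15 each). With 1 replicate left out, members called ranged from 3 to 7 for natural killer markers, 6 to 21 for matrix, 2 to 10 for ciliated and 3 to 11 for histone genes.

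The sample numbers did not pair the samples, since the correlations of deviations of same-numbered hypoxia samples were -0.19, 0.0055, 0.04 and -0.22, and not every sample correlated best with its own number. A replicate block called 3817 genes with all 4 groups, 157 for the difference and 238 in room air, and 2869 with the hypoxia groups alone, where ER-associated degradation had 7 and ciliated markers 4. In that fit of the hypoxia groups alone Hspa1b (edgeR adjusted p = 0.105), Ankrd37 (0.15), Bmp6 (0.055) and Cdh5 (0.105) were not called.

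Uncalled genes that changed sign were Odc1 (0.133 without wild type sample 2, with a range of -0.128 to 0.133 over the left-out replicates), Atf4 (-0.0168 by upper quartile scaling, -0.0626 without wild type sample 4, -0.0193 without knockout sample 4, range -0.0626 to 0.0790), Hsf1 (-0.0019 without wild type sample 2, -0.0216 without knockout sample 1, -0.0248 without both pancreatic samples, range -0.0216 to 0.103), Sftpc (-0.0055 by upper quartile scaling, -0.0808 without wild type sample 4, -0.0007 without knockout sample 4, range -0.0808 to 0.127) and Ager (0.0372 without the GC trend). The causes of these moves were not tested. Depth limits genes near 1 CPM, where a count of 0 allows 0.0686 to 0.169 CPM.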

Other observations

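Further gene lists were called in part or not at all between genotypes in hypoxia. Of 28 nuclear subunits of the respiratory chain 1 was called higher, Cycs, with a list median of 0.07, and the call was lost in most settings that left out a sample. Of 18 mevalonate and sterol genes 2 were called lower, and the number was 4 without knockout sample 1, wild type room air sample 2 or both knockout samples with pancreatic RNA, 0 without the low-share pair, 1 without knockout sample 3 or 4 and 1 without wild type sample 4. Of 18 circadian clock genes 1 was called higher, Ciart, and 0 without wild type sample 1 or knockout sample 3. Of 20 fibroblast markers 6 were called lower, and 3 without knockout sample 4 or the low-share pair, a share of 30% with all samples against 12.1% of all genes. With all samples edgeR, DESeq2 and limma voom called 0 of 13 platelet, 15 cardiac and 12 skeletal muscle genes, while 2, 1 and 0 of them had an unadjusted p under 0.05 in edgeR. Cardiac genes called lower numbered 2 without knockout sample 1 and 1 without both knockout samples with pancreatic RNA, and 1 platelet gene was called lower without wild type sample 3. Of 13 adipocyte genes 3 were called lower, 6 without knockout sample 1, wild type room air sample 4 or both knockout samples with pancreatic RNA, and 0 without both samples with the lowest share of reads in genes. All 10 measured erythroid and heme synthesis genes had positive log2 fold changes with a median of 1.70. The number of them called higher was 4 with all samples (40%, against 11.0% of all genes), 9 by DESeq2, 8 without knockout sample 1, 0 without knockout sample 2 0 without wild type sample 3 or 4, 0 without the low-share pair, 1 without knockout sample 4, wild type sample 1 or both knockout samples with pancreatic RNA, 2 without knockout sample 3 and 7 without wild type room air sample 2.

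The labels name mice of both sexes, but all 16 samples had more Y-linked than Xist counts.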
